A study of Mus musculus with 5 samples.

Results

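The replication-dependent histone genes supply the bulk of nucleosomal histones, and their chromatin accessibility (ChrAcc) was described here in naive CD8+ T cells with and without the transcription factors Tcf1 and Lef1. The members were all genes whose symbol in the mm9 annotation begins with Hist1h, Hist2h, Hist3h or Hist4h, which took in 70 of 37273 annotated genes. Of these, 67 were annotated as protein coding and 3 as pseudogenes (Hist3h2bb-ps, Hist1h2aj and Hist2h3c2). The Hist1 cluster on chromosome 13 held 56 members, Hist2 on chromosome 3 held 10, Hist3 on chromosome 11 held 3, and Hist4h4 was the only member on chromosome 6. By family, with the pseudogenes counted under their symbol, 6 were genes of the linker histone H1, 20 of H2A, 19 of H2B, 12 of H3 and 13 of H4. Most were short, with a median gene body of 530.5 bp and a range of 312 to 37383 bp.

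Open chromatin was mapped by DNase-seq, in which DNase I releases short fragments from accessible DNA that are then sequenced. The WT group had 3 replicates and carried hCD2-Cre, Rosa26-GFP and intact Tcf7 +/+ Lef1 +/+ alleles, labelled wild type. The dKO group had 2 replicates and carried the same hCD2-Cre and Rosa26-GFP with Tcf7 fl/fl Lef1 fl/fl alleles, labelled Tcf1-/-Lef1-/-. Tcf7 encodes Tcf1. All mice were on the C57BL/6 background, 6 to 12 weeks old, and of both sexes, and no treatment is named for them. The Cre is driven by human CD2 sequences and acts mainly in T cells that have left the thymus, and GFP marks cells in which it has acted. Splenocytes were sorted as GFP+ TCRbeta+ CD8+ cells with the surface phenotype of naive cells, CD44lo-med among its markers, so the cells of both genotypes had seen Cre.

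The replicates of each genotype had been pooled before peaks were called, so 1 peak list existed per genotype. They hold no values of single replicates, so no SD can be given and no test between the genotypes was possible. The WT list rested on 83923734 fragments and the dKO list on 62242963. Pileup is the number of fragments of a pool that cover a peak's summit, and fold enrichment divides it by the background that the peak caller estimated around the peak. A ChrAcc site (hereafter site) was a peak that reached 4-fold enrichment with p under 1e-05 and with q under 0.05, which kept 28472 of 31116 WT peaks and 24363 of 25525 dKO peaks. A site belonged to a member when its summit lay in the gene body or within 1000 bp of it. Because the pools differed in depth, sites were compared between genotypes as ranks, with each fold enrichment given as its percentile among the sites of its own list (100 for the highest, 0 where the list had no site).

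Histone genes of this kind are transcribed mainly in S phase, when replicated DNA has to be packed into new nucleosomes. They have no introns in their coding part, and their mRNAs end in a stem-loop instead of a poly(A) tail. Their promoters are compact, are often shared by a pair of genes that run in opposite directions, and carry TATA and CCAAT elements, with an octamer in many H2B promoters that is bound by Oct1. Naive T cells are resting cells that enter the cell cycle only after they meet their antigen.

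The label of the cells was checked against marker genes. The T cell markers Cd3e, Cd3g, Cd8a, Cd8b1, Lck, Ccr7, Il7r and Bcl11b each had a site within 1000 bp of the transcription start site (TSS) in both lists. None of the 2 NK cell markers (Ncr1 and Klrb1c) or the 2 erythroid markers (Gata1 and Hbb-b1) had a site in either list. Of the B cell markers, Pax5 had a site at percentile 45.6 in WT and 25.3 in dKO, while Ms4a1 and Cd79a had none. Among 4 myeloid markers, Itgam alone had a site, at percentile 62 in WT and none in dKO, while Lyz2, Csf1r and Cebpa had none. The CD4 lineage genes Cd4 and Zbtb7b had sites away from their TSS in WT, at percentiles 47.3 and 21.5. In dKO, Cd4 was at 14.1 and Zbtb7b had none. The targeted genes themselves kept a site in their bodies, at 57.7 in WT and 57.9 in dKO for Tcf7, and at 88.6 and 86.4 for Lef1. A site somewhere in the gene body does not by itself check the deletion, so the genotypes rest on their labels.

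Promoter sequences of the members that the results turn on are printed from the mm9 genome on the strand named, 5′ to 3′, in lower case. Capitals mark exact matches, on either strand, to promoter elements. These are TATAAA for the TATA box, the octamer ATTTGCAT and the H1 box AAACACAAA. The CCAAT box was searched by the letters of its name. The first set holds stretches between the starts of divergent H2A and H2B genes on the plus strand. Hist1h2ah/Hist1h2bk (chr13:22127513-22127689) and Hist1h2bf/Hist1h2ad (chr13:23666066-23666249) had the promoter sites of highest fold enrichment among the members in WT. Hist1h2bq/Hist1h2ao (chr13:21902069-21902235) and Hist1h2ap/Hist1h2br (chr13:21925445-21925611) had no site, and each is the reverse complement of the other. For the testis pair Hist1h2ba/Hist1h2aa, which had no site either, the middle of the gap is shown (chr13:24026103-24026253).
Hist1h2ah/Hist1h2bk: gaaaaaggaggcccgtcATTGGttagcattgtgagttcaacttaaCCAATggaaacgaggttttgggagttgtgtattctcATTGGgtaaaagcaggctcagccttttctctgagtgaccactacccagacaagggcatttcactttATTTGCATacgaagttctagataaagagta
Hist1h2bf/Hist1h2ad: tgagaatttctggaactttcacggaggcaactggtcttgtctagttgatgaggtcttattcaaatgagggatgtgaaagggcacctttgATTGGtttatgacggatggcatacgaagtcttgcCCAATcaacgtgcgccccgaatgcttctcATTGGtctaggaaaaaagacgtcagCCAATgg
Hist1h2bq/Hist1h2ao: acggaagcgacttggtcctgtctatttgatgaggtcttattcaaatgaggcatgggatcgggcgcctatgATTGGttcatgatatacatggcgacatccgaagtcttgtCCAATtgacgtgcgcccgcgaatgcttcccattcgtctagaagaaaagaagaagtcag
Hist1h2ap/Hist1h2br: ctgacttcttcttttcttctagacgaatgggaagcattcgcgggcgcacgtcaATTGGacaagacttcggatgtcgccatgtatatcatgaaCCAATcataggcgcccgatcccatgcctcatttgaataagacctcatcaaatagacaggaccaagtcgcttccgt
Hist1h2ba/Hist1h2aa: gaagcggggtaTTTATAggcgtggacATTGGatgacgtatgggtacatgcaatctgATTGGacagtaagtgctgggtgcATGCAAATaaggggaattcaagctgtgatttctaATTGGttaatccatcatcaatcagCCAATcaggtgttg

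The second set holds the 200 bp before the TSS of genes named for their rank or for a difference between the genotypes. Hist1h1c (chr13:23830476-23830675, plus strand), Hist1h3e (chr13:23654239-23654438, minus strand) and Hist1h4c (chr13:23790324-23790523, minus strand) stood high among the H1, H3 and H4 genes. Hist1h1t (chr13:23787480-23787679, plus), Hist1h2bb (chr13:23838403-23838602, plus), Hist1h3i (chr13:21875267-21875466, minus) and Hist1h4f (chr13:23643518-23643717, minus) ranked higher in dKO than in WT by at least 20 points. Hist1h1d (chr13:23646701-23646900, plus) had a promoter site in WT alone. No capitals in the Hist1h4f sequence means only that none of the letters searched for are in that window.
Hist1h1c: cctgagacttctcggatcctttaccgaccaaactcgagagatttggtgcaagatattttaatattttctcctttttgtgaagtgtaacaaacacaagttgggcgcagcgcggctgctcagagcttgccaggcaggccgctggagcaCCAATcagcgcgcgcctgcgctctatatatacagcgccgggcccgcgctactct
Hist1h3e: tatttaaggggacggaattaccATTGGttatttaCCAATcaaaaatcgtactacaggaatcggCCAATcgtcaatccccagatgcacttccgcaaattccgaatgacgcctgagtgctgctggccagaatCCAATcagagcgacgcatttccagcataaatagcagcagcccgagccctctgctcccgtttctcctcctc
Hist1h4c: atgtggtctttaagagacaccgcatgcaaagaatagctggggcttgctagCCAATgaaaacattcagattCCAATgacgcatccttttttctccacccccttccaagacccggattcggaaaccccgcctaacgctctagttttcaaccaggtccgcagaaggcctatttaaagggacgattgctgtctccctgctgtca
Hist1h1t: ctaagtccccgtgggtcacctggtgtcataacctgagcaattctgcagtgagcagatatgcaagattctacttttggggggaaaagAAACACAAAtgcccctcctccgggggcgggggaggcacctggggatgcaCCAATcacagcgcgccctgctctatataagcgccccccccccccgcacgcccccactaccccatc
Hist1h2bb: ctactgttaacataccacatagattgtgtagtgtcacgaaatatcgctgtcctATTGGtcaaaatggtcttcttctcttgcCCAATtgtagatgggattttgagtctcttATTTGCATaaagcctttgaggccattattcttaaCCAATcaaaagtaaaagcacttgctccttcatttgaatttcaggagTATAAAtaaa
Hist1h3i: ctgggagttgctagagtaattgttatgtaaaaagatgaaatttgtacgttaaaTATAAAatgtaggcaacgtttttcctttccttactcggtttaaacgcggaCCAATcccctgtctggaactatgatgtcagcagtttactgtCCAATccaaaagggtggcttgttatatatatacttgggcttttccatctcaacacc
Hist1h4f: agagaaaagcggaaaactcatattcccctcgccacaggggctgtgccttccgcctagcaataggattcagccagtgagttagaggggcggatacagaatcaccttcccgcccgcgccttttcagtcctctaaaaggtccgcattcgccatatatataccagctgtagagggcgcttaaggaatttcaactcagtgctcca
Hist1h1d: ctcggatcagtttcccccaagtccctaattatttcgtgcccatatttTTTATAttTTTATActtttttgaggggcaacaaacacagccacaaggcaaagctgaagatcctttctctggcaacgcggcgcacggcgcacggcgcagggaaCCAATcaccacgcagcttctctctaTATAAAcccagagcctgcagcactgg

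Most histone genes were accessible in both genotypes. In WT, 54 of 70 members had a site in the body or within 1000 bp (77.1%, 95% Wilson interval 66 to 85.4%), against 35.9% of all annotated genes. In dKO, 56 of 70 had one (80%, 69.2 to 87.7%), against 33.3% of all annotated genes. Among protein coding genes, to which most members belong, the share was 52.2% in WT and 48.5% in dKO. These intervals cover counting error only, and members that share a site are not independent of each other. The same 54 genes had a site in both lists, 2 had one in dKO alone and 14 had none in either. Near the start of the gene, 51 members had a site within 1000 bp of the TSS in each list (72.9%, 61.5 to 81.9%). Over all 22367 protein coding genes the share was 41.8% in WT and 38.9% in dKO.

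Short genes as such were rarely accessible. Of 1846 other protein coding genes with a body of at most 1000 bp, 5.58% had a TSS site in WT and 4.82% in dKO, but 794 of these encode olfactory or vomeronasal receptors, which belong to sensory neurons. The 81 cytosolic ribosomal protein genes, which are used in all growing cells, had a TSS site in 92.6% in each list. The 40 Hox genes, which are clustered like the histone genes but pattern the embryo, had a TSS site in 12.5% in WT and 7.5% in dKO. The histone genes thus lay between the ribosomal protein genes and the average of protein coding genes.

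**Figure D1:**
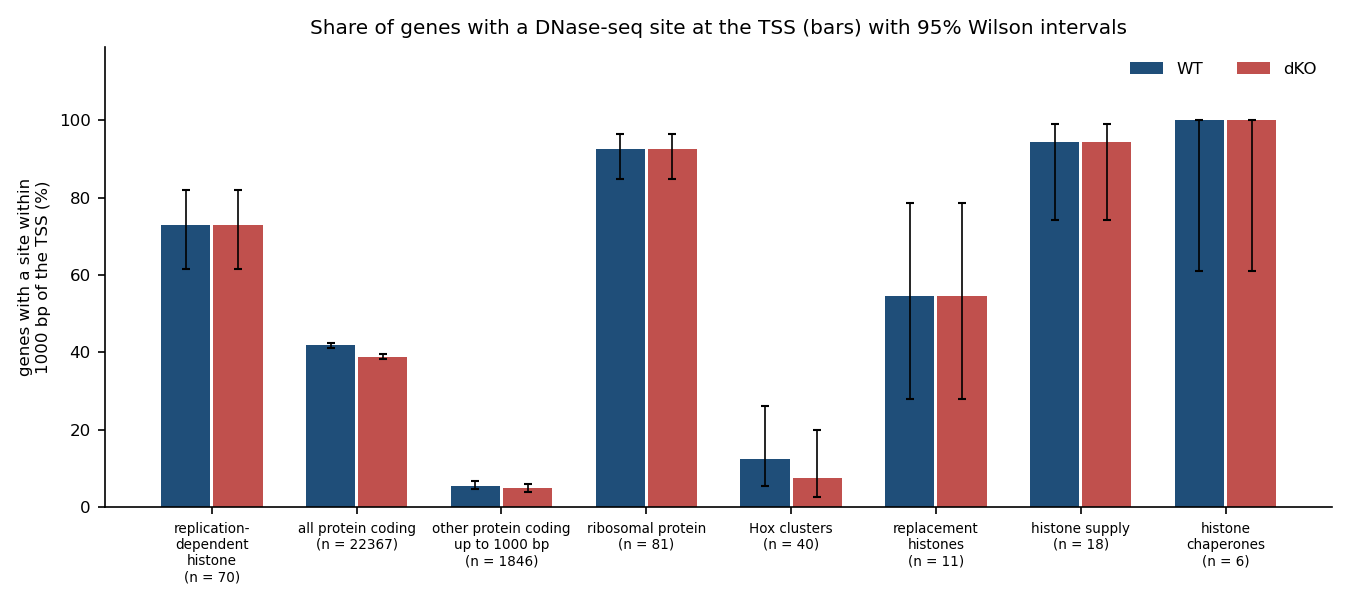
Share of genes with a site within 1000 bp of the TSS (vertical axis, percent) for the histone genes and 7 comparison lists, with WT and dKO as separate bars, 1 value per pool, and 95% Wilson intervals as error bars. The histone genes stood at 72.9% in both pools, other protein coding genes of at most 1000 bp at 5.58% in WT and 4.82% in dKO.

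In strength, the histone sites were ordinary members of the lists. The 51 WT histone sites had a median fold enrichment of 8.46, against 8.44 for all WT sites, and a median percentile of 50.1. The 55 dKO histone sites had a median fold enrichment of 8.61, against 8.48, and a median percentile of 51.6. Promoters in general ranked higher by fold enrichment: sites within 1000 bp of a protein coding TSS had a median percentile of 66.3 in WT and 63.8 in dKO, against 51 and 58.4 for the histone sites near a TSS. In fragments, the histone sites had a median pileup of 69 in WT against 57 over all sites, and of 57 in dKO against 43. Thus by pileup their median percentile was higher, at 61.9 in WT and 69.1 in dKO. By pileup, histone sites near a TSS were at a median of 61.9 in WT, under the 70.6 of sites near a protein coding TSS, and at 72.2 in dKO, above the 65.7 of such sites. The local background, worked back from pileup and fold enrichment, was also higher at histone sites, with a median of 6.59 fragments against 5.69 over all WT sites, and of 5.2 against 3.94 over all dKO sites. Near a TSS it was 6.55 at histone sites and 6.74 at sites of protein coding genes in WT, and 5.2 and 4.47 in dKO. Histone sites were crowded, with a median of 1 other site within 5 kb of the summit, against 0 over all sites in both lists. Whether the crowding sets the higher background was not tested.

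**Figure D2:**
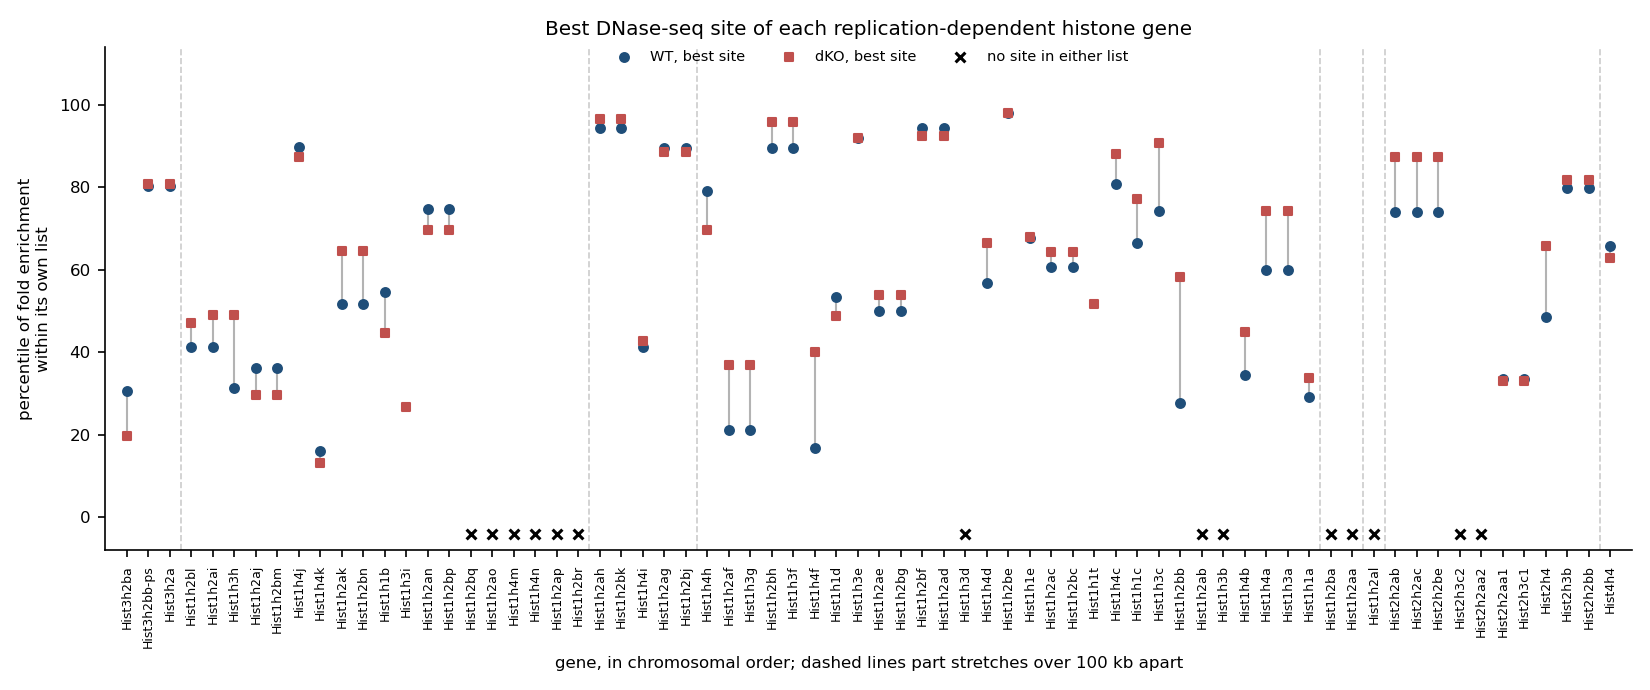
Percentile of fold enrichment (vertical axis) of the best site of each of the 70 histone genes in WT (circles) and dKO (squares), in chromosomal order (horizontal axis), with 1 value per pool and no error bars; crosses mark the 14 genes without a site in either list. Best sites ran from 16.1 to 98 in WT, and the dashed lines part stretches more than 100 kb apart.

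The linker histone genes, whose product binds DNA where it enters and leaves the nucleosome, had the lowest median rank of TSS sites among the families in dKO but not in WT. In WT, 5 of 6 H1 genes had a site, and in dKO all 6. The best site of Hist1h1e was at percentile 67.7 in WT and 68 in dKO, but these are different sites. In WT the best lay at the 3′ end of the gene (chr13:23713510-23713658), and the same site stood at 42 in dKO. In dKO the best lay farther downstream (chr13:23712907-23713340), over the start of the neighbouring Hist1h2be, and its WT counterpart stood at 52.8. Hist1h1c was at 66.4 in WT and 77.3 in dKO, through a site of 632 bp in WT that lies inside the gene, while the site over its TSS was at 33.8 and 26. Hist1h1b, at 54.7 and 44.6, had only a site past its 3′ end. The median over H1 genes with a TSS site was 60 in WT (4 genes) and 42 in dKO (3 genes). The dKO median is the value of the site at the 3′ end of Hist1h1e, which is within 1000 bp of its TSS.

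H2A and H2B form the dimers on the outer faces of the nucleosome, and their genes mostly sit in divergent pairs. Of 20 H2A genes 14 had a site in each list, and of 19 H2B genes 16. By fold enrichment, the highest promoter sites in WT were those of the pairs printed first, and positions of shared sites are given as in WT. The Hist1h2bf/Hist1h2ad site (chr13:23666046-23666311) had a fold enrichment of 16.4, a pileup of 115 and percentile 94.4 in WT. In dKO it had a fold enrichment of 15.2, a pileup of 93 and percentile 92.3. The Hist1h2ah/Hist1h2bk site (chr13:22127460-22127789) had a fold enrichment of 16.4, a pileup of 93 and percentile 94.3 in WT. In dKO it had 17.1, a pileup of 80 and percentile 96.5. In WT their percentiles by pileup were lower, at 87.9 for Hist1h2bf/Hist1h2ad and 78.4 for Hist1h2ah/Hist1h2bk. The site of Hist1h4a and Hist1h3a, with 121 fragments in WT, stood above both by pileup there. By fold enrichment, the highest histone site lay at neither promoter but inside the long gene model of Hist1h2be (chr13:23689972-23690115), at percentile 98 in both lists and a fold enrichment of 18.8 in WT and 18.4 in dKO. By pileup it was not the highest, with 100 fragments in WT against 138 at a site of Hist1h4h, and 77 in dKO against 116 at the site of Hist1h4a and Hist1h3a. That model runs over 37383 bp, and the summit is intronic in it, between the annotated TSS and the start codon. The site beside the Hist1h2be start codon itself was weak, at 16.8 in WT and 27 in dKO.

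H3 and H4 form the tetramer at the core of the nucleosome. Of 12 H3 genes 8 had a site in WT and 9 in dKO, and of 13 H4 genes 11 in each. Hist1h3e led the H3 genes in WT at 92 and was at 91.9 in dKO, through a site over its start (chr13:23654207-23654544). Hist1h3f shares a site with the H2B gene Hist1h2bh (chr13:23635164-23635474), which was at 89.5 in WT and 95.9 in dKO. Hist1h4j led the H4 genes in WT, at 89.7 against 87.5 in dKO, but the summit lay at -736 bp from its TSS in WT, where minus means before the start. Over the Hist1h4j TSS itself there was a dKO peak with a fold enrichment of 3.95 and a pileup of 19, just under the criteria for a site. It was the only histone peak of either list that missed them. Hist1h4c, with a site over its start, was at 80.7 in WT and 88 in dKO. Median percentiles of TSS sites were 74.3 and 65.5 for H3 and 56.9 and 65.9 for H4, over 7 and 8 H3 genes and 11 H4 genes in each list.

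Most genes of the smaller clusters had a site. In Hist2, which spans 59.1 kb, 8 of 10 genes had a site in each list. The best site of Hist2h2ab, Hist2h2ac and Hist2h2be, which they share, was at 74 in WT and 87.4 in dKO. It lay between the starts of Hist2h2ac and Hist2h2be, while the site before the Hist2h2ab TSS was at 32.1 and 44.3. The best site of Hist2h3b and Hist2h2bb was at 79.8 and 81.8. It lay just before the start of Hist2h2bb and past the 3′ end of Hist2h3b, which had no other site. The best site of Hist2h4 was at 48.5 and 65.9. Hist2h2aa1 and Hist2h3c1 shared a weaker site at 33.5 and 33, and Hist2h2aa2 and the pseudogene Hist2h3c2 had none. In Hist3, the divergent pair of Hist3h2a and the pseudogene Hist3h2bb-ps was at 80.3 and 80.7, and the H2B gene Hist3h2ba at 30.7 and 19.7. Hist4h4, an H4 gene far from the other members but beside the replacement histone gene H2afj, was at 65.8 and 62.8 through a site past its 3′ end, while its promoter site was at 12.4 and 15.3.

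The Hist1 genes occupied 5 stretches when genes up to 100 kb apart were joined. The largest ran over 233 kb (chr13:23622919-23856283) with 29 histone genes, and 27 of its 30 WT sites and 28 of its 31 dKO sites belonged to a histone gene. The next (chr13:21807632-21929399) held 19 genes over 122 kb, and all of its 8 WT and 10 dKO sites were histone sites. Nearly all sites of these stretches thus belonged to histone genes by the rule used, although other genes such as Hfe lie among them. The stretches begin and end at histone genes, and the long model of Hist1h2be alone took in 5 sites in each list. These shares therefore follow in part from the definitions, and no background share was computed.

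The nearest sites mostly lay just before the start of the gene. For each member with a site, the nearest summit lay at a median of -82.5 bp from the TSS in WT (54 genes) and -86.5 bp in dKO (56 genes). It lay in the 250 bp before the TSS in 43 of 54 genes in WT (79.6%) and 44 of 56 in dKO (78.6%), against 51.1% of 11681 protein coding genes with a site in WT and 52.1% of 10848 in dKO. These protein coding genes include many with a site in the body alone, as only 9353 in WT and 8701 in dKO had a TSS site. Most histone gene bodies are short, so the shares are not like for like. Among H3 genes the nearest summit lay in the 250 bp before the TSS in 3 of 8 in WT and 4 of 9 in dKO. Among H1 genes it did so in 4 of 5 in WT and 3 of 6 in dKO, where the median was 536 bp after the TSS. For H2B genes the median was -138.5 bp in WT and -136.5 bp in dKO, and for H2A genes -63.5 and -66.5 bp. In the median, summits thus lay farther from the start of H2B than of H2A genes, though not in every pair, and this was not tested. For 8 members the annotated TSS is the start codon, so their true start may lie farther upstream. Measured from the start codon, the median was -121.5 bp in WT (52 genes) and -115 bp in dKO (54 genes), without the pseudogenes, which have no annotated start codon.

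**Figure D3:**
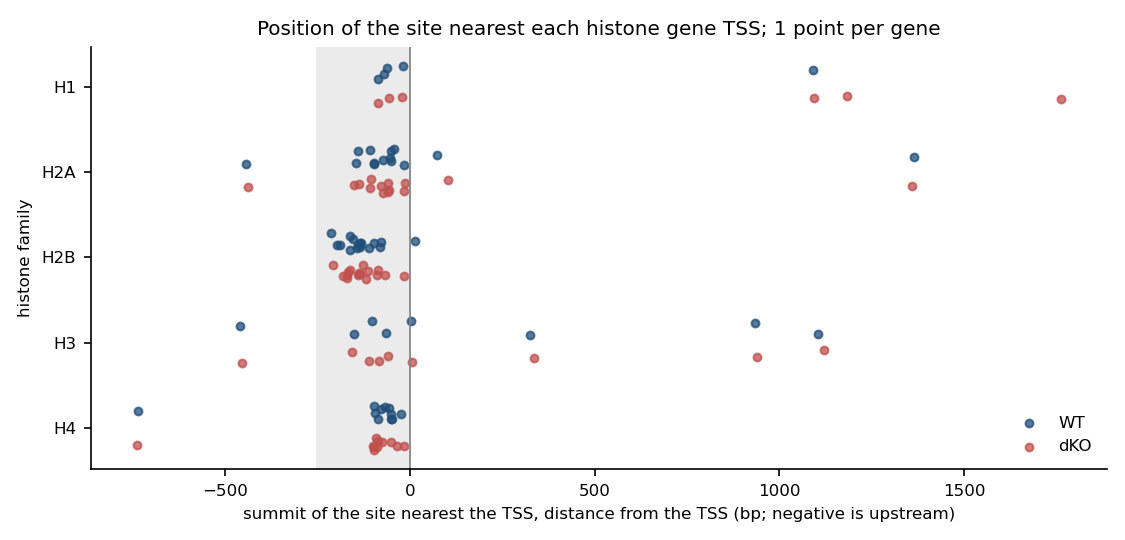
Distance in bp from the TSS to the nearest summit (horizontal axis, minus means before the start) for each histone gene with a site, by family (vertical axis) and pool; each point is 1 gene, and the shaded band marks the 250 bp before the TSS. The medians were -82.5 bp in WT and -86.5 bp in dKO. In the median, though not in every pair, summits lay farther upstream of H2B than of H2A genes.

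Of 15 divergent pairs, 12 had a site that belonged to both genes, the same 12 in each list. The gap between their starts was printed above for the pairs with the highest ranks, and is 177 bp for Hist1h2ah/Hist1h2bk and 184 bp for Hist1h2bf/Hist1h2ad. In all, 21 of 51 WT sites and 21 of 55 dKO sites belonged to more than 1 member. Of these, 13 in WT and 12 in dKO belonged to both genes of a divergent pair, and the others to other close neighbours. The pairs without a site were Hist1h2bq/Hist1h2ao, Hist1h2ap/Hist1h2br and the testis pair Hist1h2ba/Hist1h2aa.

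The members without a site fell into 2 groups by the uniqueness of their sequence. Only uniquely mapped reads had been kept, so a promoter with an identical copy elsewhere could gain few or no fragments. Uniqueness was the share of windows of 98 bp, the WT fragment size, that occur once in mm9, over the 300 bp from 250 bp before to 50 bp after the TSS. Of the 14 members without a site, 8 had fewer than 50% unique windows. The promoters of Hist1h2bq, Hist1h2ao, Hist1h2ap and Hist1h2br had 0%, those of Hist1h4m and Hist1h4n 7.39%, that of Hist2h3c2 34% and that of Hist2h2aa2 35.5%. In each of these promoters the median window occurred in 2 copies. For these 8 genes, closed chromatin and sequence that reads cannot be placed on cannot be told apart.

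The other 6 had 100% unique promoters. Among them were the testis genes Hist1h2ba and Hist1h2aa, whose products replace H2B and H2A in male germ cells. The nearest site to them was 170573 and 170879 bp from their TSS in WT. The H2A gene Hist1h2al lies apart from the other Hist1 genes, with the nearest WT site at 32087 bp. Hist1h3d, Hist1h2ab and Hist1h3b lie inside the largest stretch, with the nearest WT sites at 1426, 4465 and 4646 bp. These genes were named after their values were seen, except the testis genes. A missing site means that none passed the criteria at this depth, not that the chromatin was closed.

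Members with a site had nearly always a unique promoter. It was so for 54 of 56 (96.4%), the exceptions being Hist2h2aa1 at 35.5% and Hist2h3c1 at 43.3%. Over all members 60 of 70 promoters were wholly unique (85.7%), against 92.4% of 22367 protein coding promoters. Gene bodies were far less unique than promoters, with a median of 65.8% unique windows. Fragments over them may thus have been counted only in part, which was not measured.

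**Figure D4:**
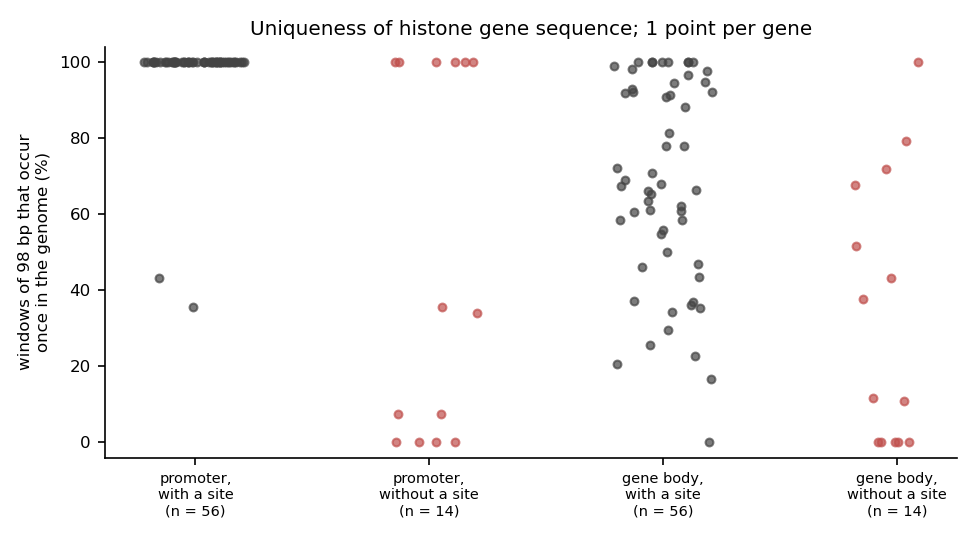
Percent of 98 bp windows that occur once in the genome (vertical axis) in the promoter and in the body of each histone gene, for the 56 genes with a site and the 14 without; each point is 1 gene, spread sideways only for legibility. Of the promoters with a site 54 stood at 100%, of those without a site 6 stood at 100% and 8 under 50%, and bodies had a median of 65.8%.

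The promoters carried the elements typical of histone genes. In the 300 bp promoter, TATAAA was found in 54.3% of members against 13.4% of protein coding promoters, and CCAAT in 84.3% against 37.9%, on either strand. CCAAT was present in all 6 H1 and all 19 H2B promoters, in 95% of H2A and 91.7% of H3 promoters, but in 30.8% of the 13 H4 promoters. The octamer ATTTGCAT was found in 16 members (22.9% against 1.73%), 7 of them H2A and 9 H2B genes, and in no H1, H3 or H4 promoter. AAACACAAA, a box known from H1 promoters, was found in Hist1h1t, Hist1h2bm and Hist1h2ab alone (4.29% against 0.635%). Within 100 bp of the summit, AAACACAAA was found at 0% of WT histone sites, against 0.537% of all WT sites. In dKO it was found at 1.82% of histone sites, against 0.55% of all dKO sites. CCGGAAGT, a core bound by ETS factors, was found in none, against 4.69%. Each motif was counted on its own, also where matches to different motifs overlap, and the genes of a divergent pair can share a match.

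The core ATCAAAG, which Tcf1 and Lef1 bind, was found in the promoters of 5 members (7.14% against 3.46%). These were Hist3h2bb-ps, Hist3h2a, Hist1h2bh, Hist1h2bf and Hist1h2ad. Their best sites changed by 0.393 percentile points for the Hist3 pair, by 6.45 for Hist1h2bh and by -2.04 for Hist1h2bf/Hist1h2ad, dKO minus WT. Within 100 bp of the summit, ATCAAAG was found at 4 of 51 WT histone sites (7.84%), against 3.81% of all WT sites. In dKO it was found at 4 of 55 histone sites (7.27%), against 2.42% of all dKO sites. These shares rest on few sites, and in the printed Hist1h2bf/Hist1h2ad sequence the match overlaps a CCAAT box. A match is a run of letters and does not show that either factor binds there. Around the summit the histone sites also had more TATAAA (37.3% against 5.56% in WT) and CCAAT (70.6% against 24.8%), and a lower GC content (47.8% against 53.2%).

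Few histone sites were found in a single genotype. In WT, 2 of 51 histone sites overlapped no dKO site by at least 1 bp (3.92%, 1.08 to 13.2%), while over all WT sites the share was 27.6%, and 14.1% over WT sites near a protein coding TSS. In dKO, 4 of 55 overlapped no WT site (7.27%, 2.86 to 17.3%), while over all dKO sites the share was 14.4%, and 3.8% over dKO sites near a protein coding TSS. The WT share thus lay under both backgrounds, and the dKO share between them. With the 20000 peaks of highest -log10 p of each list, 1 of 40 WT histone sites (2.5%, against 19.7% of all WT sites) and 12 of 53 dKO histone sites (22.6%, against 18.9% of all dKO sites) had no counterpart, so the dKO share then lay above that of all sites.

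The first of the WT sites without a dKO counterpart was over the start of Hist1h1d, an H1 gene (chr13:23646795-23646921). It had a fold enrichment of 8.86, a pileup of 69 and percentile 53.5. Hist1h1d kept another site inside the gene, at 35.6 in WT and 48.8 in dKO. The other WT site (chr11:58768361-58768517) was a weak neighbour of the Hist3h2bb-ps/Hist3h2a promoter, at percentile 4.71 with a pileup of 31.

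In dKO alone, a site lay just before the start of Hist1h3i, an H3 gene (chr13:21875273-21875390), with a fold enrichment of 6.31, a pileup of 49 and percentile 26.8. Another lay between Hist1h1t and Hist1h4c (chr13:23789379-23789482), with a fold enrichment of 8.61, a pileup of 56 and percentile 51.6. It gave Hist1h1t, the H1 gene of male germ cells, its only site. Its summit was 1762 bp after the Hist1h1t TSS, past the 3′ end of the gene, and the Hist1h1t promoter printed above had no site in either list. The other dKO sites lay 3′ of Hist1h2bl, an H2B gene (chr13:21806728-21806833, percentile 47.1), and in the long model of Hist2h2bb (chr3:96082388-96082487, percentile 23.3).

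By the best site of each gene, 4 of the 56 members with a site ranked higher in dKO by at least 20 points (3.63% of 11917 protein coding genes with a site did so). None ranked higher in WT by that much (17% of protein coding genes did so). The count toward dKO depended on the setting: it was 11 when ranked by pileup (2.63% of protein coding genes), 9 by -log10 p (2.95%), 11 at a minimum fold enrichment of 8 (8.47%), 19 with the 20000 peaks of highest -log10 p (9.72%) and 2 with a flank of 2000 bp (3.69%). Apart from Hist1h1t and Hist1h3i, which had no WT site, the 4 genes were Hist1h2bb, an H2B gene, at 27.8 in WT and 58.4 in dKO, and Hist1h4f, an H4 gene, at 16.8 and 40.1. The pileups were 38 and 50 for Hist1h2bb and 42 and 46 for Hist1h4f, so both were higher in dKO in fragments although the dKO pool was the smaller. Hist1h4f was named after its values were seen. The largest differences toward WT, dKO minus WT, were -11 points at Hist3h2ba, -10.1 at Hist1h1b and -9.33 at Hist1h4h, an H4 gene at 79 in WT and 69.7 in dKO through a site past its 3′ end. When only sites within 1000 bp of the TSS were used, which was chosen after seeing the data, 3 genes ranked higher in dKO and 2 in WT. The 2 were the H1 genes Hist1h1d, at 53.5 in WT and no site in dKO, and Hist1h1e, at 67.7 and 42. The Hist1h1e values come from the site at its 3′ end, which lies within 1000 bp of the TSS because the gene is short. The site just before the Hist1h1e TSS was at 21.4 in WT and 33.6 in dKO, so it went the other way. Among protein coding genes the shares were then 2.37% for dKO and 15.6% for WT.

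Over the sites present in both genotypes, the histone sites leaned toward a higher rank in dKO while the lists as a whole leaned the other way. Of 49 WT histone sites with a dKO counterpart, 31 ranked higher in dKO (63.3%), against 41.5% of 20626 shared sites. The median difference, dKO minus WT, was 2.83 percentile points, against -2.48 over all shared sites. Near a TSS, 28 of 42 histone sites ranked higher in dKO (66.7%), against 36.4% of 8278 shared sites near a protein coding TSS, with medians of 3.2 and -3.36. The differences were wide, from -25.7 for the Hist1h1e site at its 3′ end to 34.2 for a site beside the start codon of Hist1h3f, which was at 31.5 in WT and 65.6 in dKO. Ranked by pileup, 39 of 49 histone sites were higher in dKO (79.6%), against 36.1% of all shared sites, and the median difference was 7.73 against -3.72.

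**Figure D5:**
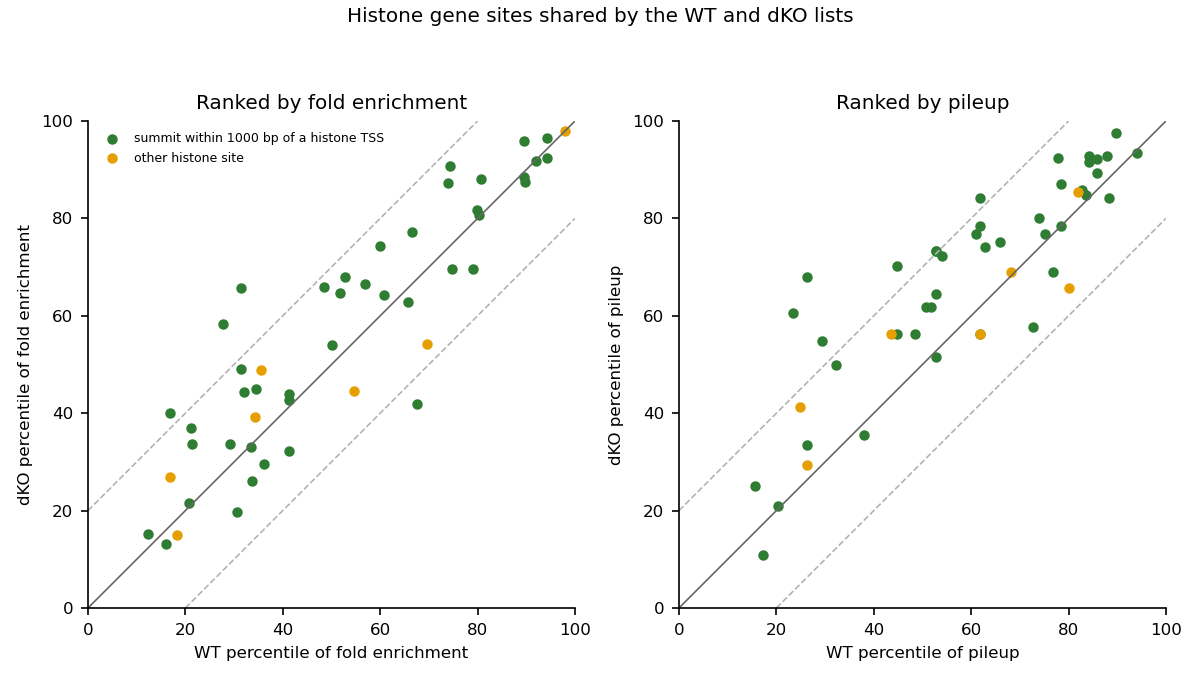
Percentile of each of the 49 shared histone sites in WT (horizontal axis) and in dKO (vertical axis), ranked by fold enrichment (left) and by pileup (right); each point is 1 site, the solid line marks equal rank and the dashed lines 20 points of difference. By fold enrichment 31 sites and by pileup 39 sites lay above the line of equal rank.

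By gene, the best sites were compared over the 54 members with a site in both lists, where the best site need not be the same in each. The median difference was 2.9 points, against -2.98 over 10612 protein coding genes with a site in both lists. By family it was 10.4 for 8 H3 genes, 7.29 for 11 H4, 2.9 for 14 H2A, 2.11 for 16 H2B and 0.318 for 5 H1 genes. This restriction was chosen after seeing the data; with 0 for a missing site, the medians were 14.3 for 9 H3 and 2.45 for 6 H1 genes and unchanged for the other families. By cluster it was 7.67 for 8 Hist2 genes, 3.68 for 42 Hist1 genes and 0.393 for 3 Hist3 genes, and -2.99 for Hist4h4. Within Hist1 it was 6.45 for 25 genes of the largest stretch but -2.56 for 12 genes of the next. Genes that share a site are counted each, and no test of these differences was made. The lists were of unequal length, so the same was computed with the 20000 peaks of highest -log10 p of each list. The median difference of shared histone sites was then 12.4 points, against 0.785 over all shared sites. It was 6.03 with a fold enrichment of at least 8 (-2.42 over all shared sites), 1.58 with the peaks as deposited (-3.46) and 0.402 with q under 1e-10 (-4.49). With pools in place of replicates, a difference between genotypes cannot be told apart from a difference between these pools, and cell cycle state was not measured.

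Histone genes outside the clusters, which encode replacement variants and are used outside S phase, were partly accessible. Of 11, 8 had a site in each list, against 52.2% of protein coding genes in WT and 48.5% in dKO, and 6 had one within 1000 bp of the TSS (54.5%), against 41.8% and 38.9%. H2afx, whose product is phosphorylated at DNA breaks, was at 93.2 in WT and 97.2 in dKO. H2afv was at 95.2 and 98.7, Cenpa, the H3 variant of centromeres, at 94.1 and 93.9, and H3f3b, which encodes the replacement histone H3.3, at 96.6 and 91.7. H2afz was at 67.2 and 68, H3f3a at 77.5 and 79.1, H2afj at 68.4 and 56.3 and H2afy at 26.1 and 30.1. The sites of H3f3b and H2afy were not within 1000 bp of the TSS in either list. H1f0, H1fx and H2afy2 had no site. None of the 8 with a site differed by 20 points or more in either direction, against 3.63% of protein coding genes with a site toward dKO and 17% toward WT.

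The genes listed for histone supply were all accessible. The list holds genes for making and processing histone mRNA, and also the cell cycle regulators Ccne1, Ccne2, Cdk2, E2f1 and E2f3. All 18 had a site in each list, 17 of them within 1000 bp of the TSS. Over protein coding genes 52.2% in WT and 48.5% in dKO had a site, and 41.8% and 38.9% had a TSS site. Npat, which brings cyclin E-Cdk2 activity to histone promoters, was at 90.7 in WT and 94.6 in dKO. Casp8ap2, a partner in the same nuclear bodies, was at 91 and 97.8, and Hinfp, which binds H4 promoters, at 90.2 and 91.1. Slbp, which binds the stem-loop at the end of histone mRNA, was at 43.6 and 44.7, and Lsm10 and Lsm11 of the U7 particle were at 94.7 and 93.1, and at 92.6 and 80.2. Zfp473, which takes part in histone mRNA processing, had its best site away from its TSS, at 86.1 and 98.9. None of the 18 differed by 20 points or more by their best site (3.63% of protein coding genes with a site ranked that much higher in dKO and 17% in WT). By TSS sites, 1 of the 17 did (2.37% and 15.6%), Eri1, an exonuclease that trims the 3′ end of histone mRNA, at 75.5 in WT and 47.4 in dKO, while its best site was at 96.9 and 96.7. The 6 histone chaperone genes also all had a TSS site in each list, with Nasp at 85.6 and 84.1. Hira, which deposits H3.3, was at 44.7 and 68.6 at its TSS and at 55.8 and 68.6 by its best site.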

How the data were processed

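DNase-seq had been run by the authors on sorted naive CD8+ T cells of WT (3 replicates) and dKO mice (2 replicates). Per the labels and methods, the authors aligned reads to mm9 with Bowtie2 version 2.2.5, kept uniquely mapped reads, pooled the replicates and called peaks with MACS2 version 2.1.1 in paired-end mode without a control. In the authors' lists, pileup is the signal (fragments over the summit, unscaled), and fold enrichment is a ratio to local background. The −log10 p and −log10 q the authors deposited come from MACS2's test of each summit. Per the file headers, each pool had 2 input files whose names differ only by a suffix for sorting, and 2 times as many fragments before as after the filter that kept 1 copy of each. The files may hold the same reads, so this ratio does not measure duplicates of the libraries.

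Gene models and sequence came from the mm9 annotation and genome. Percentiles, overlaps, distances, motif matches and unique windows were computed with Python 3.11.15, numpy 2.4.6, pandas 2.3.3, scipy 1.17.1 and pysam 0.24.0, and plots with matplotlib 3.10.9. The overlap step was tested on simulated data and found 1500 of 1500 overlaps planted among 2000 sites. Genes were named by a rule: the 2 highest of each family in each list, those with a site in 1 list only, the 3 largest differences each way, the testis variants and the Hist2, Hist3 and Hist4 genes. The members and lists were chosen with earlier results of these data known, and some cell type markers are not reported here. Alternatives tried were a fold enrichment of 8, q under 1e-10, all peaks as deposited, the 20000 peaks of highest −log10 p, flanks of 500 and 2000 bp, 50% overlap, a gap of 100 bp, ranks by −log10 p or pileup, protein coding members only, windows of 50 bp, motifs near summits and, added after seeing the data, TSS sites only and genes with a site in both lists only.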

Additional observations from a re-analysis of the deposited data

How the results depend on the processing

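Of 105 values recomputed under 15 settings, 86 stayed within the tolerance, 19 moved and 0 reversed. The tolerance was 1.5 times for a count and the 95% interval of the reported value for a median or share. A reversal was looked for only in the sign of the median difference of shared histone sites. The 0 therefore says nothing about the other values or about their order against the background shares. With the 20000 peaks of highest −log10 p in each list, 1 of 40 WT histone sites (19.7% of all WT sites) and 12 of 53 dKO histone sites (18.9% of all dKO sites) had no counterpart, the median difference of shared histone sites was 12.4 points (0.785 over all shared sites), and 19 members ranked higher in dKO by 20 points (9.72% of protein coding genes). With a fold enrichment of 8, 27 WT and 31 dKO histone sites were left, and 11 members ranked higher in dKO (8.47%). Ranked by pileup, the median percentile of histone sites was 61.9 in WT and 69.1 in dKO, and 11 members ranked higher in dKO (2.63%). Ranked by −log10 p, 9 did so (2.95%), and with a flank of 2000 bp 2 did (3.69%). Members that ranked higher in WT numbered 1 with q under 1e-10 (23% of protein coding genes), 1 with a flank of 500 bp (17.3%) and 2 with TSS sites only (15.6%), the last added after seeing the data. The count of genes that moved by 20 points thus depended on the setting, and the cause was not tested. The share of member bodies with only unique windows was 12.9% with windows of 98 bp and 5.71% with 50 bp. The dKO pool was the shallower (62242963 against 83923734 fragments); whether fewer weak sites were found for that reason was not tested. No paired analysis was possible because the lists are pools without values per replicate.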
